A study of Mus musculus with 2 samples.

Results

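The cadherin superfamily is the largest group of calcium-dependent adhesion proteins in the developing brain. All rows of the deposited expression matrix whose symbol was Cdh followed by a number, or began with Pcdh, were taken, which gave 78 of 18088 rows. There were 15 cadherin (Cdh) and 63 protocadherin (Pcdh) genes. They were measured in 1 single-cell RNA library from the medial ganglionic eminence (MGE) of CD-1 mouse embryos at E11.5, a mid-gestation stage. The MGE is the part of the ventral forebrain that makes cortical interneurons and the cholinergic and pallidal neurons of the basal forebrain. The single run held 6 sample barcodes of MULTI-seq, a method that tags cell suspensions with lipid-anchored DNA before they share a 10x Chromium run. Tissue came from animals labelled with the enhancer hs192 or hs799, and 4 barcodes marked GFP-gated and 2 marked ungated suspensions, split evenly between both enhancers. The sources used here do not give the number of embryos, and the gate can set the share of any class.

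Classical cadherins hold cells together by binding the same or a closely related cadherin on the next cell, and link to actin through catenins. Type I members include N-cadherin (Cdh2), which builds the apical junctions of neural progenitors, while the many type II members are known for patchy expression that marks brain nuclei and tracts. Delta protocadherins are single genes that bind the same protein on the next cell, and several of them act on actin through the WAVE complex. The clustered protocadherins lie side by side in the alpha, beta and gamma arrays, and a neuron switches on a partly random subset of them, which gives it a surface identity.

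Cells could not be assigned to a barcode with the files used, so enhancers and gates were not compared, the whole matrix counts as 1 sample and no test between groups was made. All differences below are descriptions of this pool. Of 4001 cells, 3995 were used, with 10475 to 14196 values per cell over all 4001. The values were whole numbers that the authors had already brought near a common depth, so raw depth is unknown. Cells were clustered with all 78 genes left out, which removed 30 of them from the 2000 most variable genes, and 17 clusters resulted. By fixed markers, 1100 cells were ventricular zone progenitor-like, 644 subventricular zone progenitor-like, 805 GABAergic MGE neuron-like and 882 cholinergic neuron-like. A further 210 cells were like neurons from the lateral ganglionic eminence (LGE), 215 were like those from the caudal one (CGE), and 139 cells in 2 clusters stayed unnamed. Nkx2-1, the defining factor of the MGE, had a level between 0.12 in unnamed cluster 6 and 5.72 in subventricular cluster 8. It stood at 0.21 in the LGE cluster. The CGE-like cluster was named from Nr2f2 (5.59) and other CGE markers, but it also had MGE markers, with Nkx2-1 at 1.86, Lhx6 at 1.78 and Lhx8 at 3.13. GABAergic cluster 13 had 1.41, 3.37 and 3.39 for the same genes, so the name goes against part of the markers. Chat and Slc18a3, which mark mature cholinergic neurons, had no row, so that class was named from its other markers. Lhx8 was at 9.53 to 11.7 in its clusters, against 3.39 and 3.67 in GABAergic clusters 13 and 14. Isl1 was at 2.19 in cluster 11 but at 0.41 and 0.18 in clusters 10 and 12, against 0.07 and 0.24 in clusters 13 and 14. Lhx6, a GABAergic marker, stood at 3.14 in the cholinergic and 3.48 in the GABAergic class. The cholinergic name thus also goes against part of the markers. Markers of cells outside the neural lineage were rare. Only 2 of 6 endothelial markers and 0 of 7 microglial markers had a row, and the summed endothelial level was at most 0.02 in any cluster. The mural (2 of 4 markers), mesenchymal (3 of 7), epithelial (2 of 4) and neural crest (1 of 4) lists summed to at most 0.07, 0.16, 0.17 and 0.29. The 6 erythroid markers summed to between 1.31 and 1.89 in every cluster. A level is a gene's summed value per 10000 summed values of the class, the standard deviation (SD) is over cells of the 1 library, and levels are compared between classes and never between genes.

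Most members were sparse. All 78 had a value in at least 10 cells, 66 had at least 30 summed values over all cells, and 39 had at least 100. Cdh2 alone held 28.3% of all member values. Type I cadherins had 4 of 5 listed genes with a row (no row for Cdh3), and type II had 10 of 13, without Cdh5, Cdh12 and Cdh18. Cdh5 is the vascular cadherin. Of the other listed cadherins only Cdh13 had a row, and among non-clustered protocadherins Pcdh12 had none. All 4 delta-1 and all 5 delta-2 protocadherins were measured with over 300 summed values. The epithelial cadherin Cdh1 had 11 summed values in 10 cells and the glial and neural crest cadherin Cdh19 had 14 in 13 cells, too few for any comparison. The 52 clustered rows ranged from 14 to 454 summed values with a median of 69.

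Upstream sequences are shown for 4 members with different leading classes, picked after their values were seen from the 18 of 78 members with an entry in the RefSeq promoter table. Each is the 250 bases before the RefSeq start, build GRCm38.p6, 5′ to 3′ on the gene's strand, and each ends where the GENCODE gene begins. Cdh6 had a higher level in ventricular zone progenitors than in any neuron class (chr15:13173676-13173925, minus strand). Pcdh10 was high in progenitors and LGE neurons (chr3:45378148-45378397, plus strand), Cdh8 was highest in LGE neurons (chr8:99416472-99416721, minus strand) and Pcdh17 in other neurons (chr14:84443313-84443562, plus strand).
Cdh6: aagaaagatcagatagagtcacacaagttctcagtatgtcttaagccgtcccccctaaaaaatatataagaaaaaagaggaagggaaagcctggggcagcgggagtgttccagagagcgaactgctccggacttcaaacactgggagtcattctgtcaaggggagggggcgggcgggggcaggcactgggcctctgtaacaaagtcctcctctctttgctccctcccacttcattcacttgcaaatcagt
Pcdh10: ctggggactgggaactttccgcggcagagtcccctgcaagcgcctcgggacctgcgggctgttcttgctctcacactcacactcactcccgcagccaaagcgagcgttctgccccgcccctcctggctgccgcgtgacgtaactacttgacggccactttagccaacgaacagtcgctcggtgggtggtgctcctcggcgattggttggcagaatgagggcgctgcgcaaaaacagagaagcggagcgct
Cdh8: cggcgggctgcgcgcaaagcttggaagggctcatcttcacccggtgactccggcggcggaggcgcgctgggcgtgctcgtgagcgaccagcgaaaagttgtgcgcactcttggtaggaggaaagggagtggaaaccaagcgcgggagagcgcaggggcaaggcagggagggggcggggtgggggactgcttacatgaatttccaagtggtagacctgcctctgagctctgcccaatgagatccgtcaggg
Pcdh17: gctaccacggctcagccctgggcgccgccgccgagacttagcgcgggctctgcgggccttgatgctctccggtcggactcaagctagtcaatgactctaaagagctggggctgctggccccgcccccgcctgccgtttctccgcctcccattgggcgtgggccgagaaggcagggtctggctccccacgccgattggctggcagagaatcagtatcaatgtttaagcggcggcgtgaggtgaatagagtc
All letters are in lower case because none of the 3 motifs searched on both strands was in these windows. These were the homeodomain core TAATTA, the proneural E-box CAGCTG and GTGGGAA, the core bound by the Notch partner Rbpj. Among 27025 promoters, 4.90%, 12.8% and 5.41% held them. The Pcdh10, Pcdh17 and Cdh8 windows held 22, 21 and 20 CG dinucleotides, and the Cdh6 window held 6, the median of all promoters.

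Between MGE neurons and ventricular zone progenitors, which divide at the ventricle, more members were at least 2-fold higher in neurons than lower. Both MGE neuron classes, 1687 cells in all, were set against the 1100 ventricular zone cells to describe the step from the ventricle to the mantle. Of 54 members with at least 30 summed values over both groups, 6 were at least 2-fold lower in neurons and 27 at least 2-fold higher. Over all genes, 25.3% were lower and 15.9% higher by the same rule. Among genes with 30 to 300 summed values, the range of most members, these shares were 35.7% and 17.2%. The share of the 54 members that was lower in neurons thus lay below both backgrounds. The median log2 ratio was 1.06 over the 54 members and -0.19 over all genes. A sparse gene passes the minimum more easily through the group where it is high, so these counts are no measure of all 78 members. Of the 24 members below the minimum, 22 had the higher level in neurons. Neurons had a median total of 11830 to 12064 values per cell by class, and ventricular zone cells 13510, with 4537 genes per cell against 3742 to 3846.

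**Figure D1:**
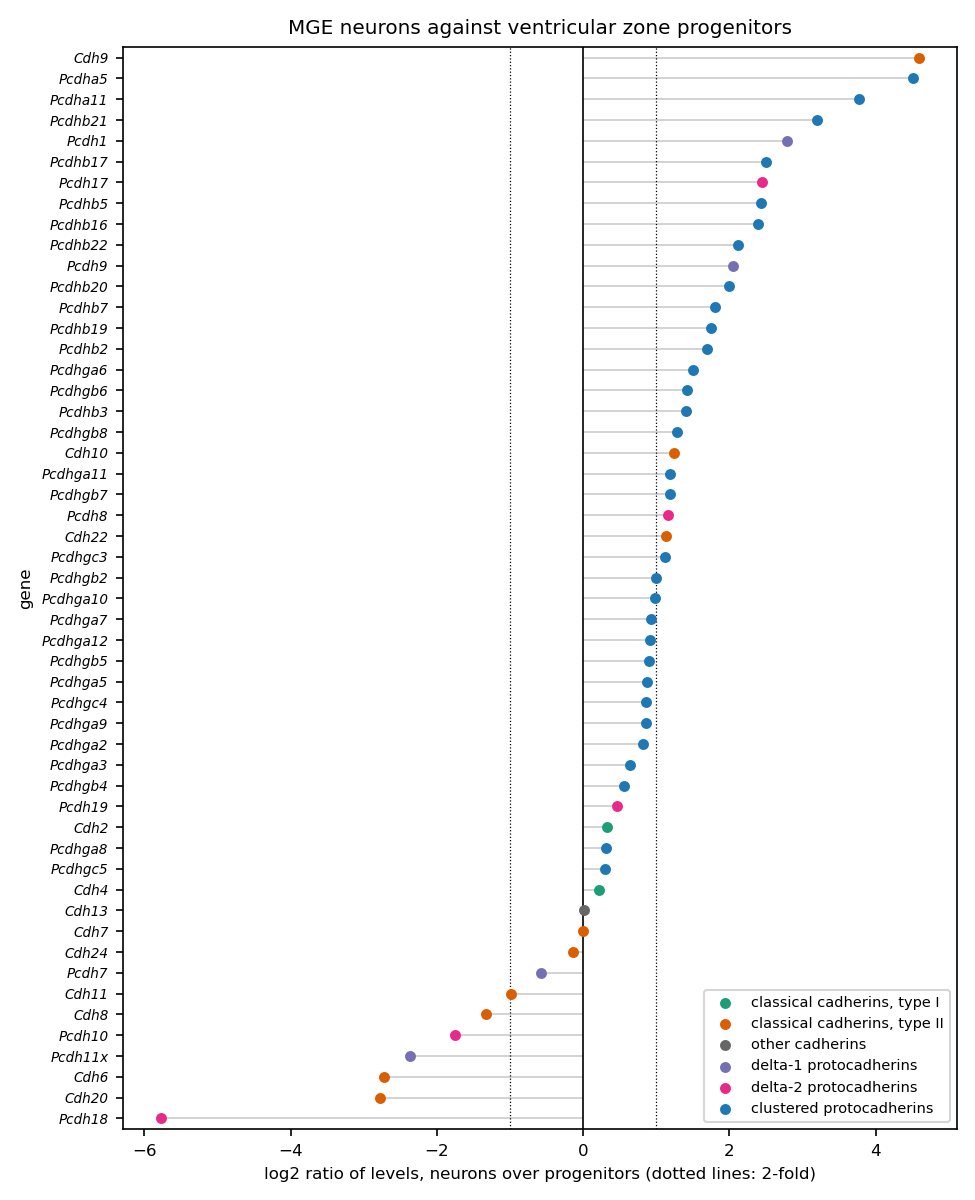
Log2 ratio of the level in MGE neuron-like cells (1687) over that in ventricular zone progenitor-like cells (1100), for each member with at least 30 summed values, coloured by family; dotted lines mark 2-fold. Pcdh18 lies alone at -5.77, clustered protocadherins all lie to the right of 0, and Pcdhb9 and Pcdha12, listed at 0 in progenitors, cannot be drawn.

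Pcdh18 showed the largest ratio among members with a value in both groups. It stood at 0.160 in ventricular zone cells (SD 0.336), with a value in 19.5% of them, and at 0.093 in the subventricular zone. In GABAergic and cholinergic neurons it was at 0.003, with a value in 0.356% of MGE neurons, a log2 ratio of -5.77. In the LGE and CGE-like classes it was also at 0.004, so all 4 neuron classes lay near 0. With marker gates in place of clusters the log2 ratios of Pcdh18 and Pcdh11x were -4.23 and -1.70. Cdh6 (chromosome 15, 13028701 to 13173675, GRCm38), a type II cadherin, was at 0.222 (SD 0.483) in the ventricular zone and at 0.034 in MGE neurons, a log2 ratio of -2.72. Cdh20, a sparse type II gene, had a log2 ratio of -2.77, and the X-linked delta-1 gene Pcdh11x -2.36.

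Several of these genes were not low in every neuron class. In LGE neurons Pcdh11x was at 0.142 and Cdh20 at 0.030, against 0.10 and 0.023 in the ventricular zone. Pcdh10, a delta-2 protocadherin that recruits the WAVE complex, was at 0.750 (SD 0.894) in ventricular zone cells, 58.1% of which had a value. It stood at 0.223 in MGE neurons, with a log2 ratio of -1.75, but was at its highest in the LGE class. Cdh8 had a log2 ratio of -1.33 between MGE neurons and progenitors, which was -0.67 at clustering resolution 0.5. Cdh11 lay just inside 2-fold at -0.99. It had a value in 35.6% of ventricular zone cells and 15.1% of MGE neurons.

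Among the single genes at least 2-fold higher in neurons, Pcdh17 was the most widely found. It had a value in 54.1% of MGE neurons and 27.2% of ventricular zone cells, with levels of 1.53 (SD 2.32) and 0.282 (SD 0.535), a log2 ratio of 2.44. Pcdh9, a delta-1 gene spanning a very long locus on chromosome 14 (93013410 to 93890679), was at 0.393 against 0.095, a log2 ratio of 2.05. Pcdh1 was at 0.119 against 0.017, a log2 ratio of 2.79. Pcdh8, an activity-regulated delta-2 gene, had a log2 ratio of 1.16, and the type II genes Cdh10 and Cdh22 had 1.24 and 1.13. That of Cdh10 was 0.67 when cells were grouped by marker gates in place of clusters. Cdh9 had a log2 ratio of 4.59 on 35 summed values. Pcdh9, Pcdh8, Cdh10 and Cdh22 fall outside the naming rule and were chosen after their values were seen. The delta families were thus split in direction, with 2 higher and 1 lower of 4 delta-1 genes, and 2 higher and 2 lower of 5 delta-2 genes.

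Cdh2 was close to level across the classes. It had a value in 87.1% of ventricular zone cells and 89.2% of MGE neurons, at levels of 1.70 (SD 1.23) and 2.13 (SD 1.52). Its cluster levels ran from 1.27 in subventricular cluster 1 to 2.49 in the CGE-like cluster. Cdh24 (log2 ratio -0.13), Cdh13 (0.02), Cdh7 (0.00) and Cdh4 (0.22) also lay within 2-fold between MGE neurons and progenitors, as did Pcdh19 at 0.46. Cdh4, Cdh7 and Cdh13 each had single clusters with a higher level, described below. Cdh2, Cdh22, Cdh24 and Pcdh19 were singled out after their values were seen.

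The clustered protocadherins, on chromosome 18, stood higher in neurons throughout. Of 52 rows, 33 reached the minimum of summed values, and all 33 had the higher level in neurons, 20 of them by at least 2-fold. Over all genes 6204 of 14489 had the higher level in neurons and 15.9% were past 2-fold, or 1630 of 4385 and 17.2% among genes with 30 to 300 summed values. Sparse rows reach the minimum more easily through the neurons where they are high, so these counts do not describe all 52. All 3 alpha and all 11 beta genes that could be compared were past 2-fold, with medians of 4.51 and 2.12. Among 19 gamma genes 6 were past it, with a median of 0.92. Pcdha11 was at 0.038 in neurons and 0.003 in progenitors, a log2 ratio of 3.77, and Pcdha5 had a log2 ratio of 4.51. Among beta genes, Pcdhb21 was at 0.050 against 0.005 (log2 ratio 3.19), Pcdhb17 at 0.051 against 0.009 (2.51), Pcdhb5 at 2.43 (3.39 with marker gates), Pcdhb16 at 2.39 and Pcdhb22 at 2.12. Pcdhb9 and Pcdha12 were listed at 0 in the ventricular zone, with values in 1.48% and 1.96% of neurons. The gamma C genes, which are often found outside the random choice, gave log2 ratios of 1.11 for Pcdhgc3, 0.86 for Pcdhgc4 and 0.30 for Pcdhgc5, and were named after their values were seen.

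Single clustered genes cannot be read as single isoforms. In the GENCODE annotation 10 of the 11 alpha rows end at the same base, as do 17 of the 22 gamma rows, because their variable first exons join shared last exons. Each of the 19 beta genes has an end of its own. The sources used here do not say how reads from shared exons were divided among rows. Pcdha11 names 2 rows, of which the one with more summed values (128 against 25) kept the symbol here.

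The number of clustered genes per cell followed the same order. With every cell thinned to 10000 values, 60.9% of ventricular zone cells had no clustered protocadherin (exact 95% interval 58.0% to 63.8%). That share was 46.7% in the subventricular zone (42.8% to 50.7%), 30.9% in GABAergic neurons (27.8% to 34.3%) and 30.3% in cholinergic neurons (27.3% to 33.4%). It was lowest in LGE neurons, at 19.0% (14% to 25%). The intervals of progenitors and neurons did not overlap, while the GABAergic and cholinergic intervals did. They cover only the counting of cells in 1 library and say nothing of other embryos or runs. Thinning acted on values already brought near a common depth, so it does not level raw depth between classes, whose part was not tested. The mean number of clustered genes with a value was 0.540 in ventricular zone cells (SD 0.794) and 1.48 in LGE neurons (SD 1.15), and the highest in any cell was 6. By array, no gamma gene (22 rows) was found in 45.7% of GABAergic neurons, no beta gene (19 rows) in 75% and no alpha gene (11 rows) in 89.7%. In CGE-like cells the share with no gamma gene was 51.2%. Summed over each array, the gamma level was 0.457 in the ventricular zone and 0.871 in GABAergic neurons, the beta level 0.090 and 0.369, and the alpha level 0.012 and 0.113. Without thinning the shares with none were 52.2% in ventricular zone cells, 25.1% in GABAergic and 26.9% in cholinergic neurons.

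**Figure D2:**
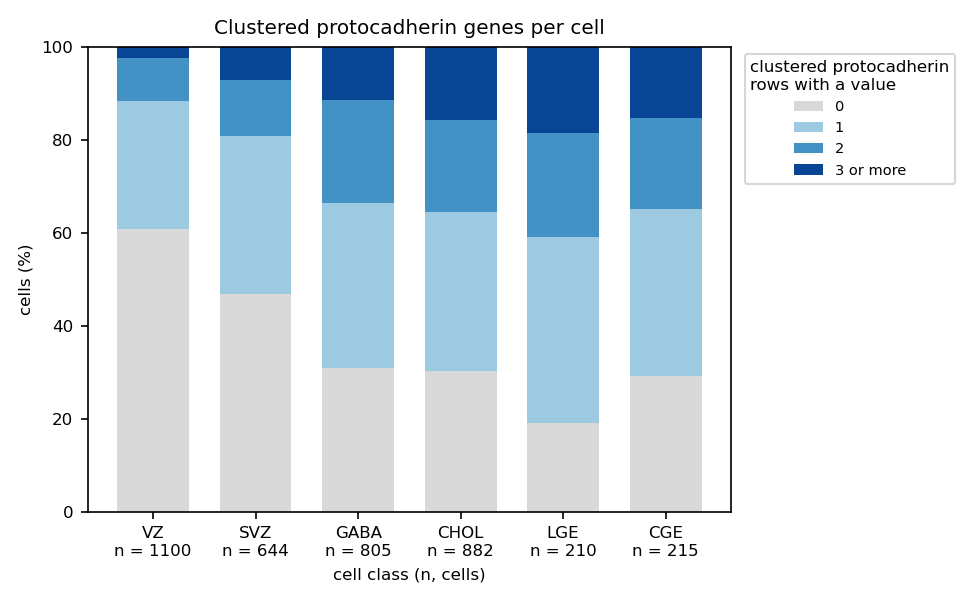
Share of cells (%) with 0, 1, 2 or at least 3 clustered protocadherin genes detected, by cell class, after thinning each cell to 10000 values (VZ and SVZ, ventricular and subventricular zone; GABA, GABAergic; CHOL, cholinergic). The share with none is 60.9% in ventricular zone cells and 19.0% in LGE neurons.

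Subventricular zone cells, the dividing and newly postmitotic cells between ventricle and mantle, had lower levels of several progenitor cadherins. Of 40 members that could be compared with the ventricular zone, 8 were at least 2-fold lower and 7 higher, beside 12.7% and 5.28% of all genes, and 27.3% and 4.86% of genes with 30 to 300 summed values. The median log2 ratio was 0.20 over the 40 and -0.17 over all genes. Of the other 38 members, 27 had the higher level in the subventricular zone and 9 the lower. This comparison and the one above share the ventricular zone cells. Cdh6 was at 0.030 against 0.222, a log2 ratio of -2.89, which was -1.85 at resolution 2. Pcdh7 was at 0.060 against 0.188 (-1.66), Pcdh10 at 0.290 against 0.750 (-1.37) and Cdh11 at 0.148 against 0.361 (-1.29). Cdh10, Pcdh8 and Cdh20 gave -1.68, -1.52 and -1.42, and Cdh8 gave -1.08. Cdh8 was at -0.90 with the members kept among the variable genes, and Cdh11 at -0.94 at resolution 2. Pcdh18 was still present, at a log2 ratio of -0.78. It was at 0.02 in subventricular cluster 8, which was led by Slit1 and Dll3 and had the highest Dll3 level of all clusters.

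Cdh7 was the one classical cadherin at least 2-fold above its ventricular zone level at this step. It was at 0.180 (SD 0.514) in the subventricular zone and 0.065 (SD 0.240) in the ventricular zone, a log2 ratio of 1.47. Its 2 highest clusters were subventricular clusters 7 (0.23) and 8 (0.22). Cluster 7 was led by Gsx1 and Helt. It had the ventricular zone marker Hes5 at 9.20, against 9.07 in ventricular cluster 9 and 1.23 to 2.66 in the other subventricular clusters. The subventricular marker Dll3 was at 1.82 in cluster 7 and 0.25 in cluster 9. The name of cluster 7 thus goes against part of the markers. The other genes past 2-fold were Pcdh1, at a log2 ratio of 1.07, and the clustered genes Pcdhb17 (1.96), Pcdhb16 (1.86), Pcdhga6 (1.29), Pcdhgb6 (1.14) and Pcdhga11 (1.13). Pcdh1 was within 2-fold under 7 of the other settings tried, with values down to 0.61. Pcdhga11 was at 0.92 with the members kept among the variable genes and Pcdhgb6 at 0.81 at resolution 2.

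Cholinergic and GABAergic neuron-like cells, classes named after the lineages of the series title, were within 2-fold for 39 of 51 members. Of 51 members, 8 were at least 2-fold higher in the cholinergic class and 4 lower, beside 3.59% and 2.52% of all genes. Among genes with 30 to 300 summed values these shares were 8.92% and 5.52%. The median log2 ratio was 0.11 over the 51 and -0.02 over all genes. Of the other 27 members, 14 had the higher level in cholinergic cells and 11 the lower. Type II cadherins supplied 4 of the 8. Cdh7 was at 0.112 (SD 0.394) in cholinergic and 0.015 (SD 0.121) in GABAergic cells, a log2 ratio of 2.88, with a value in 9.41% and 1.74% of cells. Cdh9 gave 3.26, Cdh6 2.0 and Cdh8 1.20. Type I Cdh4, the retinal cadherin, was at 0.272 (SD 0.669) against 0.094 (SD 0.308), a log2 ratio of 1.53, and Pcdh8 at 0.263 against 0.096, a log2 ratio of 1.45. Pcdh11x (1.11) and Pcdhb16 (1.04) lay near the threshold.

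Several of these differences rested on how cells were grouped. The log2 ratio of Cdh8 was -0.08 with the members kept among the variable genes and -0.29 with no cells removed as doublets, and that of Pcdh11x was -0.31 with marker gates. With those gates Cdh6 was at 0.60 and Pcdh8 at 0.44. Pcdhb16 was at 0.60 with the members kept among the variable genes. Cdh7, Cdh9 and Cdh4 stayed past 2-fold wherever they could be compared, at 1.40, 1.76 and 1.33 with marker gates.

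On the GABAergic side were 2 delta-1 and 2 clustered protocadherins. Pcdh9 was at 0.567 (SD 0.995) in GABAergic and 0.231 (SD 0.588) in cholinergic cells, a log2 ratio of -1.30, and Pcdh7 at 0.196 against 0.062, a log2 ratio of -1.66. With marker gates the ratio of Pcdh9 was -0.88. Both were highest within the class in cluster 13, which was led by Sst, Calb1 and Maf. There Pcdh9 was at 0.83 and Pcdh7 at 0.30. In cluster 14, led by Tgfb3 and Efcab6 with St18 among its leading genes, they were at 0.24 and 0.06. Pcdha12 (-1.17) and Pcdhb3 (-1.11) also passed 2-fold, with values in 2.73% of cells or fewer in either class; with no cells removed as doublets they were at -0.95 and -0.65. Cdh2 (-0.21), Cdh10 (-0.04), Pcdh19 (-0.02), Cdh11 (0.20) and Pcdh10 (0.23) were close to equal levels, and 29 of 32 clustered genes were within 2-fold. Among partner genes, 0 of 11 catenins and junction genes and 0 of 11 WAVE complex and effector genes were past 2-fold, and Fat3 (1.32), Dnmt3b (1.08) and the S phase gene Mcm2 (-1.34) were the genes of the other lists that were.

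Within the cholinergic class, cluster 11 had the highest level of each gene on the cholinergic side. It had the highest Isl1 (2.19) and Gbx2 (1.0) levels of the 3 cholinergic clusters and 215 cells, against 448 in cluster 12 and 219 in cluster 10. Cdh4 was at 0.520 there, with a value in 37.2% of cells, at 0.255 in cluster 12 and at 0.054 in cluster 10. Cdh8 was at 0.358, 0.105 and 0.035 in the same order, and Cdh7 at 0.211, 0.085 and 0.066. Cdh9, which led the cluster's ranking of genes although it was left out of the clustering, was at 0.098, 0.007 and 0.004, with a value in 10.2% of cells of cluster 11. Pcdh8 was shared by clusters 11 (0.347) and 12 (0.310) and low in cluster 10 (0.077). Cluster 10, led by Carlr and Arl4d with Shh and Lhx8 also in its leading genes, was thus low in each of these genes.

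**Figure D3:**
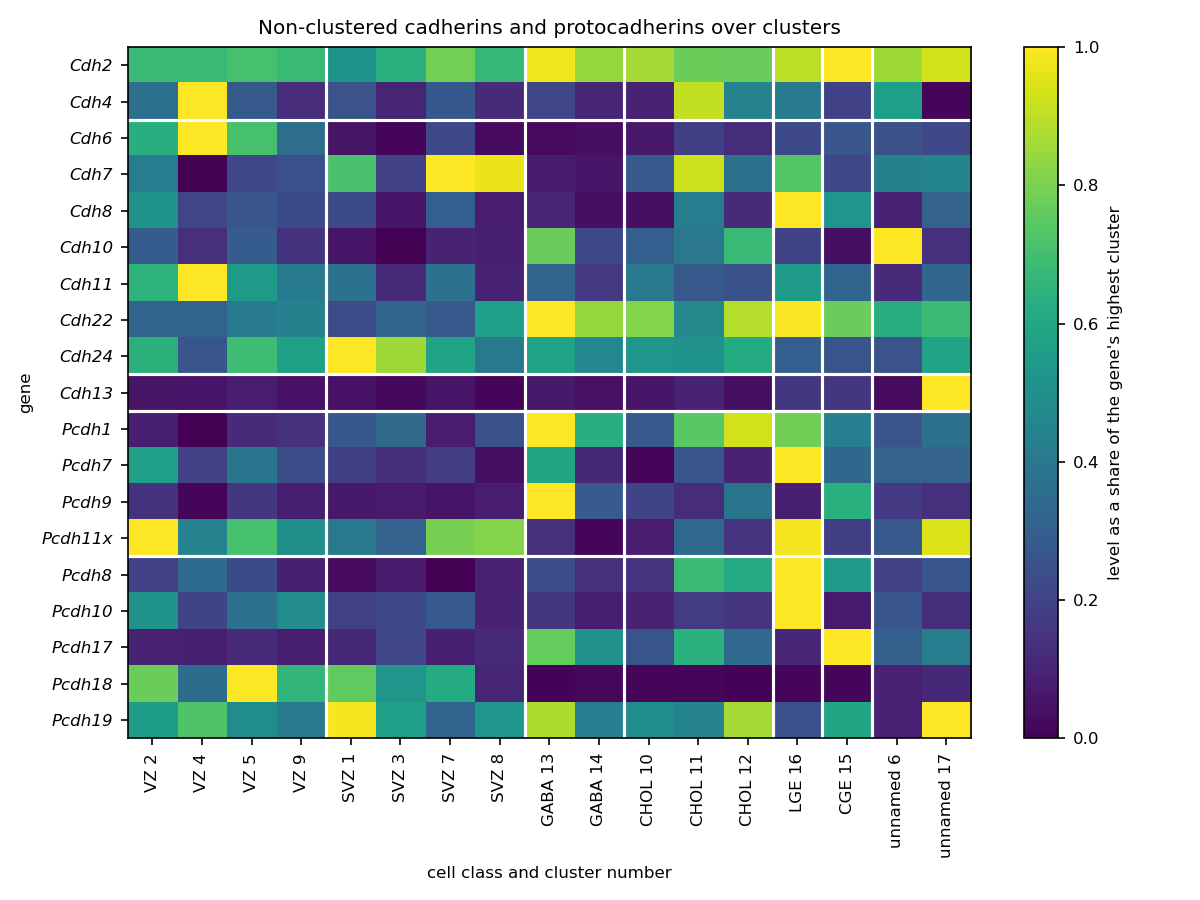
Level of 19 non-clustered members with at least 100 summed values in each of the 17 clusters, as a share of the gene's own highest cluster; VZ and SVZ are ventricular and subventricular zone, GABA and CHOL the MGE neuron classes, and white lines separate cell classes (columns) and families (rows). LGE cluster 16 is the highest for Cdh8, Pcdh7, Pcdh8 and Pcdh10, Pcdh18 is near 0 in all neuron classes, and Cdh13 is high in unnamed cluster 17 alone.

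The LGE neuron-like cluster, which had the highest Ebf1 level (14.1) and a high Isl1 level (8.42), had high levels of several cadherins that were low in MGE neurons. Its name is that of the neighbouring eminence, which makes striatal projection neurons, and rests on markers alone. Where its cells arose was not tested. Of 52 members compared with MGE neurons, 10 were at least 2-fold higher and 8 lower, beside 7.54% and 7.06% of all genes, and 16.3% and 15.4% of genes with 30 to 300 summed values. The median log2 ratio was 0.16 over the 52 and 0.03 over all genes. Of the other 26 members, 19 had the higher level in LGE cells and 5 the lower. The MGE neurons are those of the comparisons above. Cdh8 was at 0.847 (SD 1.18) against 0.110 (SD 0.419), a log2 ratio of 2.94. It had a value in 51.4% of LGE cells and 8.54% of MGE neurons. Pcdh10 was at 1.65 (SD 2.13) against 0.223, a log2 ratio of 2.89, with a value in 54.8% and 17.9% of cells. With marker gates Pcdh10 was at 3.50, and at resolution 0.5 Cdh8 was at 2.11. Pcdh11x gave 2.86, or 1.81 with marker gates, Pcdh7 2.02, Pcdh8 1.47, Cdh6 1.41 and Cdh7 1.36, the last at 0.98 at resolution 0.5. Cdh13, the cadherin that lacks a cytoplasmic domain, gave 1.48, or 0.27 with marker gates. Cdh11, at 0.99, was just inside 2-fold. Pcdhb14 (1.48, or 2.40 with marker gates) and Pcdhb20 (1.15) were the clustered genes on this side.

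The genes lower in LGE than in MGE neurons included Pcdh17 and Pcdh9, both higher in MGE neurons than in ventricular zone progenitors. Pcdh17 was at 0.317 (SD 0.839) against 1.53, a log2 ratio of -2.27, close to its ventricular zone level of 0.282. Pcdh9 was at 0.071 against 0.393, a log2 ratio of -2.47, which lay between -3.90 with marker gates and -1.53 at resolution 0.5. Pcdh19 gave -1.42, or -0.56 with marker gates, and Cdh10 gave -1.33. Pcdhb3, Pcdhb21, Pcdhb9 and Pcdhga11 gave -1.97, -1.75, -1.42 and -1.13. By the share of cells with a value, Cdh10, Pcdhb21, Pcdhb9 and Pcdhga11 were at -0.79, -0.69, -0.58 and -0.52, while Pcdhb9 was at -2.66 with the members kept among the variable genes and Pcdhb21 at -2.55 with marker gates. Pcdh10 and Pcdh17, both delta-2 genes, lay on opposite sides, and over the 17 clusters they had a Spearman correlation of -0.69. Pcdh17 and Pcdh9 had one of 0.75. Both pairs were picked after the values were seen, from all pairs of the more abundant members. Other pairs lay further out, with Pcdh18 and Cdh22 at -0.86 and Pcdh1 and Cdh22 at 0.80. Such values describe clusters of 1 library, which share its depth and processing.

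**Figure D4:**
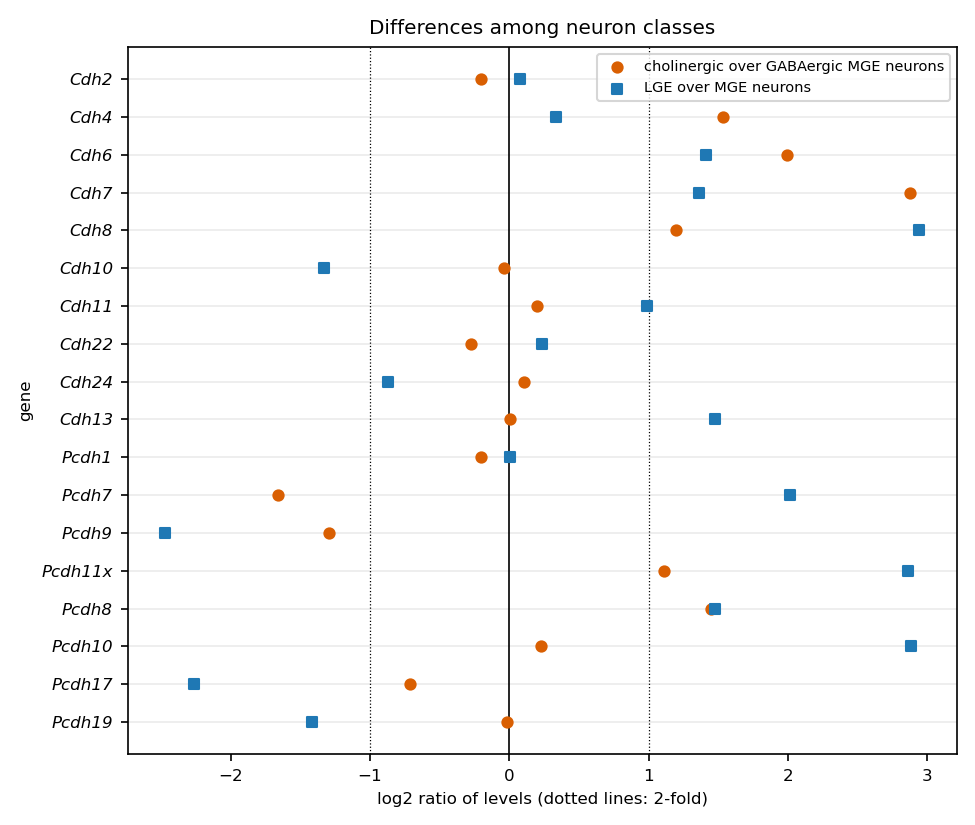
Log2 ratios of levels for non-clustered members with at least 100 summed values, cholinergic over GABAergic MGE neurons (circles) and LGE over MGE neurons (squares); dotted lines mark 2-fold, and Pcdh18 has too few values in neurons to be drawn. Cdh8, Pcdh10 and Pcdh11x lie at 2.86 or more for LGE neurons, Pcdh9 and Pcdh17 at -2.27 or less; the comparisons share the MGE neurons.

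Cluster 15, the CGE-like cluster with MGE markers, led by Map3k5 and Dbpht2, combined high Pcdh17 with moderate Cdh8. Pcdh17 was at 2.95, the highest of the 17 clusters, ahead of GABAergic cluster 13 at 2.25. It had a value in 63.7% of CGE-like cells and 62.2% of GABAergic MGE cells. Cdh8 was at 0.446 and Pcdh9 at 0.527, each second only to the cluster named above for it, while Pcdh10 was at 0.119, its lowest level. Pcdh20, which had only 53 summed values in all, had a value in 6.0% of these cells and in at most 1.4% of any other class.

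Further restricted patterns lay outside the classes compared. Cdh13 (chromosome 8, 118283733 to 119324921) reached 0.651 (SD 1.08) in unnamed cluster 17, led by Hmx2 and Hmx3. It had a value in 37.4% of these 99 cells, and the next cluster stood at 0.104. This highest level was 18 times its median cluster. Of the 39 members with at least 100 summed values, 17 had a highest cluster at least 3 times their median cluster. The share was 22.9% over the 12571 genes with that minimum. Sparse genes can pass this rule more easily in small clusters, and no share was taken for genes as sparse as the members. Cdh10 (0.181) and Pcdhb21 (0.161) were highest in unnamed cluster 6, which had 40 cells and was led by Nrn1 and Otp. Pcdhga6 was also highest in cluster 6 (0.101). Cdh10, Pcdhb21 and Pcdhga6 had a value in only 10%, 7.5% and 12.5% of these 40 cells, so their highest levels rest on very few cells. Pcdha11 was highest in the LGE cluster (0.075), Pcdhb16 in cluster 11 (0.098) and Pcdh1 in cluster 13 (0.152).

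Among the ventricular zone clusters, cluster 4 had the highest levels of 3 classical cadherins and low levels of others. It held 63 cells and had Fzd7 and Igfbp5 as leading genes, with Nr2f2 at 5.80 and Nkx2-1 at 1.03. Cdh11 was at 0.661 there, Cdh4 at 0.572 and Cdh6 at 0.407, the highest of the 17 clusters for each. The other 3 ventricular clusters ranged from 0.28 to 0.43 for Cdh11, 0.07 to 0.21 for Cdh4 and 0.15 to 0.29 for Cdh6. Cdh2, at 1.69, was level with the other 3 (1.68 to 1.77), Cdh8 (0.178) and Cdh24 (0.064) were the lowest of the 4, and Cdh7 and Pcdh1 were listed at 0. Cluster 2, led by replication-dependent histone genes, was above cluster 9, led by Ung and Cdc6, for Cdh8 (0.44 against 0.19) and Pcdh7 (0.29 against 0.12). Pcdh18 was highest in mitotic cluster 5, at 0.216.

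Within classes, a few members were detected in a larger share of the cells that had a given other member than of those without it. In cholinergic cells Cdh8 was detected in 19.1% of the 136 cells with Pcdh10 (12.9% to 26.7%) and in 7.4% of the 746 without it (5.6% to 9.5%). In LGE cells Pcdh10 was detected in 74.5% of 47 cells with Cdh11 and 46.0% of 163 without it. In GABAergic cells Pcdh17 was detected in 66.7% of 267 cells with Pcdh9 (60.7% to 72.3%) and 55.9% of 538 without it (51.6% to 60.2%). These are 3 of 14 pairs, among 259 pairs within classes, whose exact 95% intervals did not overlap, picked after their values were seen. The classes join clusters that differ in these genes, and detection also varies with the raw depth of a cell, whose part was not tested. No share of such pairs was taken for other genes, so 14 of 259 has no background to be read against.

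Partner genes also differed in both directions between progenitors and neurons. Over all genes, 15.9% were at least 2-fold higher and 25.3% lower, and the counts of these short lists are to be read against those shares. Of 11 catenins and junction genes, 2 were at least 2-fold higher in MGE neurons and 2 lower. Alpha-catenins lay on opposite sides: Ctnna1 was at 0.366 in neurons and 1.21 in progenitors, a log2 ratio of -1.72, while the neural form Ctnna2 was at 1.02 against 0.229, a ratio of 2.16. Plakoglobin, Jup, was higher in neurons (2.75), and vinculin, Vcl, lower (-1.06). Among the far cadherin relatives, 3 of 10 were higher and 3 lower. Celsr1 (-5.53), Fat1 (-3.25) and Fat4 (-2.15), which act in planar polarity and growth control, were lower in neurons, and Celsr3 (2.72), Dchs1 (1.62) and Clstn3 (1.51) were higher. In LGE neurons Clstn2, Fat4 and Fat1 stood above MGE neurons at log2 ratios of 3.49, 2.60 and 1.81. Of the WAVE complex and other effectors, Cyfip2 was higher in MGE neurons (1.14) and Wasf2 lower (-1.62), and 9 of 11 were within 2-fold. Of 12 genes known to act on the clustered promoters, 0 were higher and 4 lower in neurons, among them the cohesin genes Stag2 (-1.76) and Rad21 (-1.18) and the silencing factor Smchd1 (-1.29). The count of 4 of 12 is near the background share, and the list's median was -0.65 against -0.19 over all genes. All 12 S phase and all 12 G2 and M phase genes were lower too. Of 7 genes for cadherin cleavage, Adam17 alone was past 2-fold, at -1.59.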

How the data were processed

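One RNA library of pooled E11.5 MGE cells was analysed; the sample barcode library has no values of its own here. Tools and build per the submitters' processing notes are bcl2fastq, Cell Ranger 3.0.2 and GRCm38. The deposited matrix (18088 genes, 4001 cells, whole numbers from 0 to 1245, 22.1% above 0) was handled as a depth-corrected score of the authors and not as raw UMI counts, because cell totals lay between 10475 and 14196 and 194 cells hardly held the value 1. The sources used here do not name that step. The matrix had 0 mitochondrial rows.

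Scrublet in scanpy 1.11.5 (expected rate 0.05) called 6 cells (0.150%), which were removed; how well the caller works on such values was not tested, so doublets may remain. Clusters came from log values scaled to 10000 per cell, the 2000 most variable genes without the members, 30 components, 15 neighbours and Leiden resolution 1 (igraph 0.11.9). A class name went to the list with the highest mean standardised level among lists of which 3 or more markers reached 1.5 times their level outside the cluster and 10% of its cells. It was withheld where the 10 leading genes held more markers of another list. Names rebuilt in this way may differ from the study's. Members, gene lists and comparisons were chosen with earlier results of these data known. With 1 sample there is no test: ratios of levels were described for genes with at least 30 summed values. Members past 2-fold were named, at most 12 in each direction, as were members with at least 100 summed values whose highest cluster was 3 times their median cluster. Levels have no interval, since values are not counts. Gene positions are from GENCODE M21 (GRCm38), which held all 78 identifiers. The ratio code was tested on simulated data. Exact 95% intervals cover the counting of cells only. Protein sequences were not used here.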

Additional observations from a re-analysis of the deposited data

How the results depend on the processing

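There is 1 library, so no left-out replicate could be tried, and no paired analysis was possible because the result comes from no test. Sparse members limit every count. Members at least 2-fold higher in MGE neurons than in ventricular zone progenitors numbered 27, but 13 with a minimum of 100 summed values, 45 with none and 16 by the share of cells with a value. The members' median log2 ratio was 0.94 without rescaling, 0.86 with the minimum of 100 and 0.91 by the share of cells. For subventricular against ventricular zone cells, 7 higher members became 4 with the members kept among the variable genes, 4 with 4000 variable genes, 2 with the minimum of 100, 21 with none and 4 by the share of cells, and 8 lower members became 13 with no minimum. For cholinergic against GABAergic cells, 8 higher members became 5 with the members kept among the variable genes, 4 with the minimum of 100, 14 with none and 4 with no cells removed as doublets. The 4 lower members became 2 at resolution 2, with the minimum of 100, with no cells removed as doublets and by the share of cells. For LGE against MGE neurons, 10 higher members became 6 with the minimum of 100 and 17 with none, and 8 lower became 4 by the share of cells. Fewer or more members could be compared under another minimum; other causes were not tested.

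Of 756 values under other settings for single members past 2-fold, leaving out ratios to a group listed at 0, 691 stayed past it in the same direction, 62 came within 2-fold and 3 changed sign. Those were Cdh8 between cholinergic and GABAergic cells, at -0.081 with the members kept among the variable genes and -0.29 with no cells removed as doublets, and Pcdh11x there, at -0.31 with marker gates. The 44 values with the minimum of 100 and the 76 with none stayed by design, since the minimum changes no ratio. They say nothing of how stable a ratio is. Without thinning, cells with no clustered protocadherin made up 52.2% of ventricular zone, 25.1% of GABAergic and 26.9% of cholinergic cells. Marker gates were not run for the subventricular zone, for which no gate was set.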
